A study of Mus musculus with 6 samples.

Results

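The galectins Lgals1, Lgals3, Lgals4, Lgals8 and Lgals9 and the fibrinogen-like gene Fgl2 were followed across the arrays of this series. Their products can be secreted or lie at the cell surface, and some are described as means by which regulatory T cells (Treg) restrain other cells. Every probe set whose annotated symbol is 1 of these 6 genes was taken, which gave 9 probe sets of the 22690 in the table, and 6 genes of 12393. The probe sets were taken by symbol alone, but the 6 genes were chosen with earlier results of these data known. Lgals1, Lgals8 and Fgl2 had a pair of probe sets each, and Lgals3, Lgals4 and Lgals9 had a single one. The samples were CD4+CD25+ T cells separated with magnets from mice, 3 of them carrying fl-DNMT1/Foxp3cre (a floxed Dnmt1 gene and Cre recombinase under Foxp3, hereafter knockout) and 3 of them wild type, all listed as strain C57BL6. Dnmt1 encodes the maintenance DNA methyltransferase, and the comparison asks which transcripts differ when it is deleted in the cells that express Foxp3, so CD4+CD25+ cells without Foxp3 would not delete it. The controls carry neither the Cre nor the floxed allele as far as the labels say, so the effects of both cannot be told apart from that of losing Dnmt1. Samples are given as independent, but none is tied to its own animal, and the p-values therefore measure only the spread between these samples, which may be technical.

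Galectins are lectins that bind galactose-containing glycans on cell surface proteins. Galectin-1 has a single carbohydrate recognition domain and forms dimers, galectin-3 joins such a domain to a long amino-terminal tail through which it forms oligomers, and galectins 4, 8 and 9 have a pair of domains in tandem. Galectin-1, galectin-9 and Fgl2 are described as suppressive products of Treg, galectin-9 being a ligand of Tim-3 and Fgl2 a ligand of the inhibitory Fc receptor encoded by Fcgr2b. Galectin-1 and galectin-3 transcripts also accompany activation of T cells, and galectin-3 and Fgl2 are abundant in macrophages.

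Values are log2 expression summaries made with RMA, a method that removes background, puts the arrays on a common scale and merges the readings of all probes in a set. Array medians lay between 5.69 and 5.77 over all probe sets, and precision is limited by there being 3 arrays a group. Pearson r taken across probe sets, which do not count as replicates, was 0.984 to 0.992 between groups and 0.991 to 0.997 within them. The defining transcripts of the labelled cells were read on all arrays, with wild type means of 9.33 ± 0.02 for Cd4 and 9.50 ± 0.02 for Foxp3 and knockout means of 9.11 ± 0.23 and 8.84 ± 0.42 (SD, n = 3). Neither of these differences passed the test (limma adjusted p = 0.393 and 0.142). Neutrophil transcripts stood out in the knockout arrays: of 18 measured neutrophil markers 10 rose, and their mean was 5.73 to 6.10 in the wild type group, while knockout replicates 1, 2 and 3 had 7.64, 9.60 and 8.27. Leaving out wild type replicate 1, 2 or 3 left 0, 1 and 0 of these 10 calls, and leaving out knockout replicate 1, 2 or 3 gave 13, 12 and 4. The calls included S100a8 and the granule protein genes Ngp (difference 4.51), S100a9 (3.84) and Ltf (4.60), but with trend and robust variance 1 of the 18 passed, S100a8, with Ngp, S100a9 and Ltf at adjusted p of 0.0531, 0.0561 and 0.0565. Fewer cells of a type and less RNA per cell cannot be told apart in such bulk samples.

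Because the knocked-out gene encodes the enzyme that copies DNA methylation, the sequence upstream of the members is shown for the number of CpG dinucleotides it holds. Methylation itself was not measured here. RefSeq windows of 250 bases before the start site (GRCm38.p6) were found for 5 of the 6 genes, all but Lgals1. Capitals mark CpG. Lgals3 and Fgl2 are shown as the genes that rose, and Lgals9 as a gene without a detectable difference.
Lgals3, chr14:47373610-47373859, plus strand: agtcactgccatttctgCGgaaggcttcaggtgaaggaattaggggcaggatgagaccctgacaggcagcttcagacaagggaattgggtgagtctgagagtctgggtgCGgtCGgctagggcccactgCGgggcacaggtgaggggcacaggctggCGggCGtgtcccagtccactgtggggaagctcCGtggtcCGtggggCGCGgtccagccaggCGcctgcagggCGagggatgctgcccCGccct
Fgl2, chr5:21372423-21372672, plus strand: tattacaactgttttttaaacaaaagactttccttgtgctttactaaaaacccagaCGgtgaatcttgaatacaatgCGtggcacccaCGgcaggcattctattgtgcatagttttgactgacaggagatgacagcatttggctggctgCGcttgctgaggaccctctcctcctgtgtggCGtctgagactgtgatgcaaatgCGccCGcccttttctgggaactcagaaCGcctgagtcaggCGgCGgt
Lgals9, chr11:78984925-78985174, minus strand: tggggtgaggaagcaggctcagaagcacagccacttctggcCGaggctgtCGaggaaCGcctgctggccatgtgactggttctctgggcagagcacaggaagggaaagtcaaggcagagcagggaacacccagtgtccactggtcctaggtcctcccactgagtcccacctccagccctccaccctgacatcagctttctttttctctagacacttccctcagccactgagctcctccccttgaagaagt
The Lgals3 window held 13 CpG and the Fgl2 window 10, against 4 in Lgals8, 3 in Lgals9 and 2 in Lgals4. The median over 32841 such windows was 6. At least as many CpG as in Lgals3 were found in 31.5% of windows, and at least as many as in Fgl2 in 37.8%, so neither count is unusual. The windows were also searched on both strands for TGANTCA, the letters bound by AP-1 factors, and for TTCNNNGAA, the letters bound by STAT factors, which each read the same on both strands. Fgl2 held 1 match to each, tgagtca starting 16 bases and ttctgggaa starting 36 bases before the start site, with no overlap between them. The other 4 windows held 0 of either. Of all windows, 6.75% held TGANTCA and 7.02% TTCNNNGAA. The TATA box letters TATAAA, searched on both strands and found in 12.4% of all windows, were in 0 of the 5.

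Lgals3 and Fgl2 rose in the knockout, Lgals1 was higher on every knockout array without passing the test, and no difference was detected for Lgals4, Lgals8 or Lgals9. By limma over all genes, 2 of the 6 genes were called higher and 0 lower (3 and 0 at an unadjusted p under 0.05), where 1.33% of 12393 genes were called higher and 0.573% lower. At an unadjusted limma p under 0.05, 1061 of the 12393 genes were higher and 1161 lower. Positive differences were found in 5743 of all genes and negative ones in 6650, the base for such counts in the lists below. The groups did not overlap in 3 of the 6 genes, all with higher knockout values, as in 11.0% of all genes. The median difference over the 6 genes was 0.41 on the log2 scale, against -0.014 over all genes. Over probe sets, 3 of 9 were called higher (1.19% of 22626 probe sets), and 5 of 9 had knockout values above all wild type values (9.79%). All 6 genes lay above the dimmest 40% of genes by mean level, so this filter removed none of them.

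**Figure D1:**
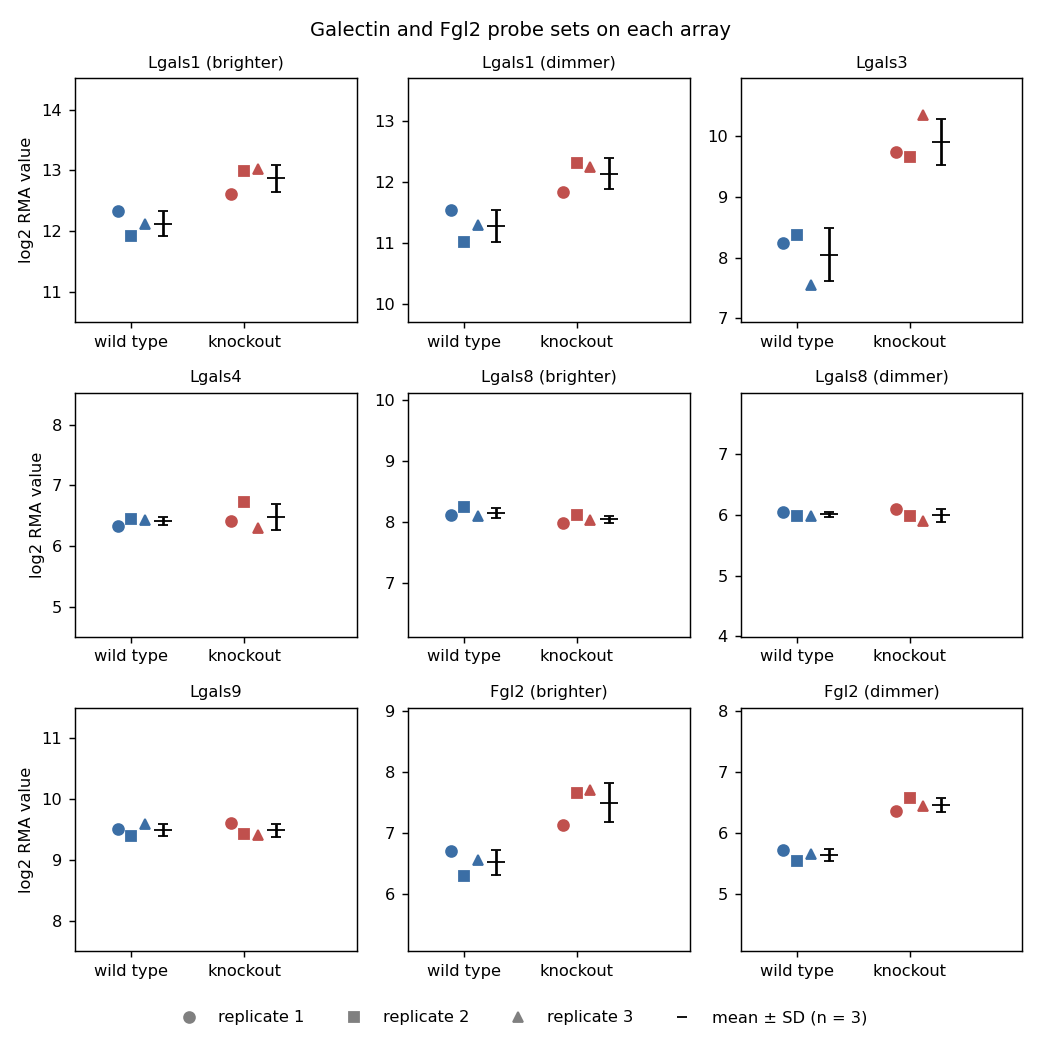
Log2 RMA value (vertical axis, each panel spanning the same number of log2 units) of the 9 probe sets of Lgals1, Lgals3, Lgals4, Lgals8, Lgals9 and Fgl2 on each array, with the mean ± SD of 3 arrays beside the points. The knockout points lie above all wild type points in both Lgals1 probe sets, in Lgals3 and in both Fgl2 probe sets, and the groups overlap in the other 4 panels.

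Lgals3, the chimera-type galectin, had log2 values of 8.24, 8.36 and 7.55 on wild type replicates 1, 2 and 3 and of 9.73, 9.65 and 10.33 on knockout replicates 1, 2 and 3 (probe set 1426808_at). Wild type replicate 3 was the lowest and knockout replicate 3 the highest, and the lowest knockout value lay 1.28 above the highest wild type value. Group means were 8.05 ± 0.44 for wild type and 9.90 ± 0.38 for knockout arrays (SD, n = 3). They differed by 1.85 (SE 0.25, limma adjusted p = 0.0212), which is 3.61-fold. The spread within each group was thus well below the difference between them. Lgals3 no longer passed when wild type replicate 1, 2 or 3 was left out (adjusted p = 0.0925, 0.0648 and 0.0707), with differences of 1.60 to 2.01, and held without knockout replicate 1, 2 or 3 (adjusted p 0.0223 to 0.0459).

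Fgl2, a member of the fibrinogen-related family that exists as a membrane-bound enzyme that cleaves prothrombin and as a secreted protein, was read by a pair of probe sets. The brighter, 1421855_at, had 6.71, 6.30 and 6.55 in wild type and 7.13, 7.67 and 7.70 in the knockout (replicates 1, 2 and 3 in each). The difference was 0.98 (SE 0.17, limma adjusted p = 0.0415), 1.97-fold, with group means of 6.52 ± 0.21 and 7.50 ± 0.32 (SD, n = 3). Knockout replicate 1 was the lowest of its group and lay 0.42 above the highest wild type array. The other probe set, 1421854_at, had 5.73, 5.54 and 5.66 in wild type and 6.36, 6.58 and 6.44 in the knockout, a tighter pair of groups separated by 0.63. Its difference of 0.82 (SE 0.093, limma adjusted p = 0.0118 over all probe sets) is 1.76-fold, so both probe sets of Fgl2 passed. In the RefSeq annotation the Fgl2 gene lies within the span of Ccdc146, for which no value is given here. The call of the brighter probe set held without knockout replicate 1 (difference 1.16, adjusted p = 0.00875). Leaving out wild type replicate 1, 2 or 3 (0.107, 0.159 and 0.172) or knockout replicate 2 or 3 (0.0928 and 0.112) ended it, with differences between 0.87 and 1.07.

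Lgals1, the dimeric galectin with the best known action against effector T cells, had 12.34, 11.92 and 12.12 in wild type and 12.61, 12.99 and 13.02 in the knockout (probe set 1455439_a_at). Every knockout array was above every wild type array, by at least 0.27, but the wild type values spread over 0.42 and those of the knockout over 0.41. The difference of 0.74 (SE 0.15, limma adjusted p = 0.0554), 1.67-fold, fell just short of the threshold, and its 95% confidence interval ran from 0.40 to 1.09. The other probe set, 1419573_a_at, gave 11.54, 11.01 and 11.29 in wild type and 11.84, 12.31 and 12.24 in the knockout. Its difference was 0.85 (SE 0.17, limma adjusted p = 0.0568 over all probe sets), so both readings of Lgals1 gave a like size and missed the threshold by a like margin. Without knockout replicate 1, its lowest knockout array, Lgals1 passed (difference 0.87, adjusted p = 0.0219). Lgals1 also passed with the arrays centred on their medians or scaled by cyclic loess (adjusted p = 0.0492 and 0.0478), without the dimmest genes (0.0451), with trend and robust variance (0.0413) and with array weights (0.0410). Over all 16 alternatives its adjusted p ran from 0.0219 to 0.730.

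Among the tandem-repeat galectins, Lgals9 had 9.51, 9.39 and 9.59 in wild type and 9.62, 9.44 and 9.41 in the knockout. The groups overlapped fully and the difference was -0.0061 (SE 0.093, limma adjusted p = 0.983), with a sign that turned under quantile normalisation and cyclic loess. Its 95% confidence interval of -0.22 to 0.21 does not contain a change as large as that of Lgals1. Lgals8, a galectin that marks damaged endosomes for autophagy, had 8.11, 8.24 and 8.10 in wild type and 7.99, 8.11 and 8.04 in the knockout by its brighter probe set. That difference was -0.11 (SE 0.080, limma adjusted p = 0.534), and the other probe set gave -0.013 (SE 0.084, adjusted p = 0.958 over all probe sets). Lgals4, a galectin of gut epithelium, had 6.33, 6.46 and 6.44 in wild type and 6.42, 6.73 and 6.31 in the knockout, which differ by 0.077 (SE 0.12, limma adjusted p = 0.776). Knockout replicate 2 had the highest value, and without that array the difference was -0.044. The intervals of Lgals4 (-0.20 to 0.35) and Lgals8 (-0.29 to 0.080) leave room for small changes. Whether the differences of the 6 genes differ from each other was not tested.

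**Figure D2:**
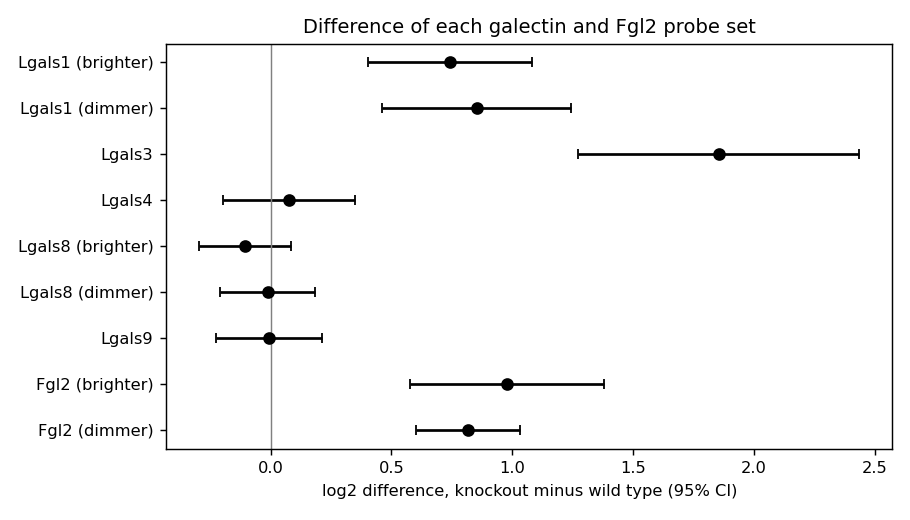
Log2 difference of each probe set, knockout minus wild type (horizontal axis), as points with 95% confidence intervals from the fit over all probe sets. The intervals of Lgals1, Lgals3 and Fgl2 lie above 0 and those of Lgals4, Lgals8 and Lgals9 include it.

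S100a8, a calcium-binding protein gene of neutrophils, served as the reference for the array to array differences in neutrophil transcripts. It had 9.49, 9.89 and 9.09 in wild type and 12.23, 13.75 and 12.88 in the knockout, so that knockout replicate 2 was highest, replicate 3 next and replicate 1 lowest. Of 18 neutrophil markers, 16 ordered the knockout arrays in this way, as did 18.9% of all genes. S100a8 itself is counted in both the 18 and the 16. Among the 6 genes 1 did so by its brightest probe set, Lgals8, and among the 9 probe sets 3 did (18.4% of all probe sets), 1 each of Lgals1, Lgals8 and Fgl2. With 3 arrays an order is a description only.

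Lgals3 did not follow S100a8 across the knockout arrays. Its value on knockout replicate 2, where S100a8 was 1.51 above replicate 1, was 0.078 below that of replicate 1, and the highest was on replicate 3. Above the wild type mean, Lgals3 stood at 1.68, 1.60 and 2.29 on knockout replicates 1, 2 and 3, where S100a8 stood at 2.74, 4.26 and 3.39. On the wild type arrays, however, Lgals3 had the order of S100a8, with replicate 2 highest and replicate 3 lowest, an order found in 17.3% of all genes. With the mean of the neutrophil list on each array as a covariate, which largely follows the groups, the Lgals3 difference was 1.95 (SE 0.64, limma adjusted p = 0.382).

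Fgl2 and Lgals1 followed S100a8 in part. Knockout replicate 1 was the lowest of its group in 4 of 4 probe sets of these 2 genes, as in S100a8 and in 32.6% of all probe sets, and replicate 2 exceeded replicate 1 by 0.22 to 0.53. Replicates 2 and 3 differed by only 0.032 to 0.14 in these probe sets, in either direction, where S100a8 differed by 0.87. In wild type the order was another one, as replicate 2 was the lowest of its group in 4 of 4 probe sets and the highest for S100a8. With the neutrophil covariate the Fgl2 difference was 0.48 (SE 0.39, limma adjusted p = 0.706) and the Lgals1 difference 0.39 (SE 0.34, adjusted p = 0.730), each little larger than its SE. The part of neutrophil RNA in these differences was not tested beyond these values.

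**Figure D3:**
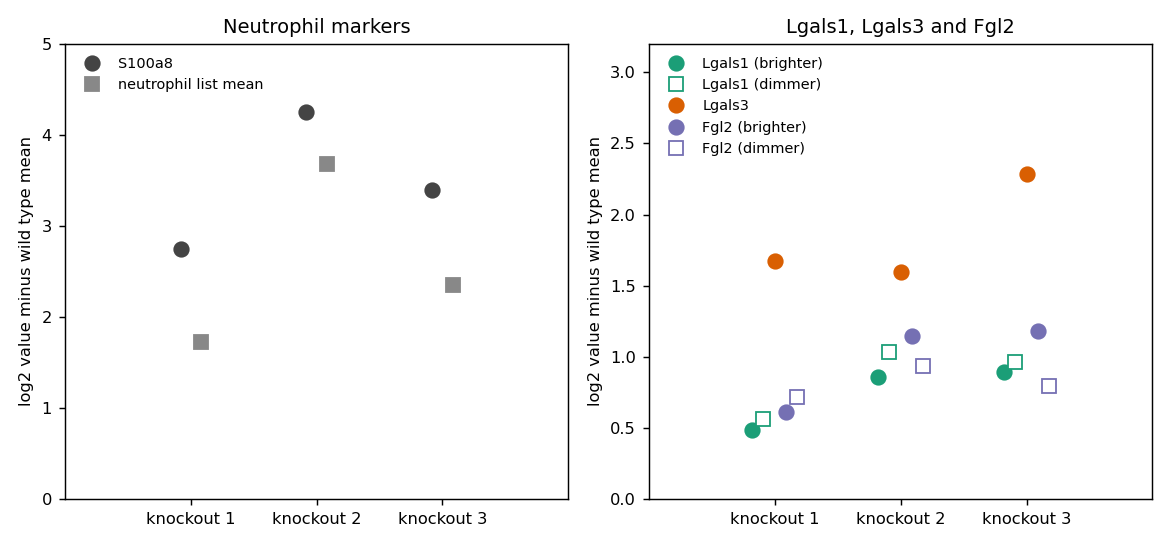
Log2 value minus the wild type mean on each knockout array (horizontal axis) for S100a8 and the mean of the neutrophil markers on the left, and for the probe sets of Lgals1, Lgals3 and Fgl2 on the right; the vertical scales differ. S100a8 is highest on knockout replicate 2 (4.26), Lgals3 on replicate 3 (2.29), and Lgals1 and Fgl2 are lowest on replicate 1.

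Macrophage transcripts, another possible source of Lgals3 and Fgl2, were also higher on the knockout arrays. All 19 measured monocyte and macrophage markers had a positive difference, with 1 called, Cd14 (1.29, limma adjusted p = 0.0243), and a median of 0.80. Cd14 lay among the dimmest 40% of genes by mean level, and without those genes 0 of this list were called. Without knockout replicate 2, 5 of the 19 were called, and without any 1 of the wild type arrays 0. Their mean was 4.87 to 5.37 in the wild type group, while knockout replicates 1, 2 and 3 had 5.83, 6.09 and 5.82. The members of this list went both ways across the knockout arrays. Replicate 2 was the highest of the group in 10 of the 19, as in S100a8 and 33.2% of all genes, and the lowest in 6, as in Lgals3 and 36.2% of all genes. Those 6 were the complement genes C1qa, C1qb and C1qc, the scavenger and mannose receptor genes Msr1 and Mrc1 (difference 0.80, limma adjusted p = 0.0983), and Vcam1. Vcam1, an adhesion molecule gene, had 4.64, 5.21 and 4.26 in wild type and 6.88, 5.25 and 7.06 in the knockout, the order of Lgals3. It was the only 1 of the 19 with that full order, found in 16.4% of all genes. The order of S100a8 was found in 8 of the 19, against 18.9% of all genes. The dendritic cell markers had means of 6.29 to 6.40 in wild type and of 6.53, 6.61 and 6.89 in the knockout, with 0 of 9 called by limma and 3 higher at an unadjusted p under 0.05. The knockout arrays had the order of Lgals3 in 4 of these 9 genes and that of S100a8 in 3 of them, against 16.4% and 18.9% of all genes. The lowest p values were those of Fscn1 and Bst2 (difference 0.52, limma adjusted p = 0.103), both with the order of Lgals3. Fscn1, an actin-bundling protein of mature dendritic cells (8.90, 8.48 and 9.05 in wild type, 9.50, 9.43 and 10.08 in the knockout), had an adjusted p of 0.0965. B cell markers had 0 of 9 called by limma, also at an unadjusted p under 0.05 (0), and overlapping means of 6.52 to 7.80 and 6.42 to 7.26, with the lowest p for Blk (difference 0.46) and Ms4a1 (-0.57), neither passing. Erythroid markers had means of 4.37 to 4.64 in wild type and of 5.02, 5.10 and 5.79 in the knockout. All 6 had a positive difference (median 0.73) and 0 passed by limma, with 3 at an unadjusted p under 0.05. The lowest p values were those of Car2 (difference 1.70, limma adjusted p = 0.0641) and Slc4a1 (1.16, adjusted p = 0.110), and 3 of the 6 had the order of Lgals3. Leaving out knockout replicate 1, 2 or 3 gave 1 call in each case. The part of these cells in the rise of Lgals3 and Fgl2 was not tested.

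The genes whose profile over the 6 arrays was most like that of each member were taken from 6098 other genes at or above the median level. For Lgals1 the closest was Fgl2 (Pearson r = 0.996 over 6 arrays), followed by the chemokine receptor gene Cxcr6 (0.993) and Plekhf1 (0.991). For Fgl2 they were Lgals1, Plekhf1 (0.995) and the sialyltransferase gene St3gal6 (0.993). For Lgals3 they were Ifit1 (0.991), Uap1 (0.989) and Ifih1 (0.987), of which Ifit1 and Ifih1 are interferon-induced genes, and Uap1 makes a sugar nucleotide used in glycan synthesis. These correlations rest on both groups together, so a shared difference between the groups raises them, and they carry no test. Of the genes named, Cxcr6 and Plekhf1 rose by 1.18 and 0.95 (limma adjusted p = 0.0227 and 0.0410), while Ifit1 had a difference of 0.70 (adjusted p = 0.0602) and Ifih1 of 0.27 (0.160).

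Genes linked to activation and effector memory of T cells were also examined. Of 17 measured, 5 rose and 0 fell by limma (11 and 0 at an unadjusted p under 0.05), all 17 had a positive difference, and their median difference was 0.51. They included the interleukin-18 receptor gene Il18r1 (difference 1.28), the calcium-binding protein genes S100a6 (1.39) and S100a4 (1.29), and Cxcr6, whose limma adjusted p lay between 0.0226 and 0.0243. The fifth was Prdm1, a transcription factor gene (0.45, adjusted p = 0.0379). Without knockout replicate 1 the count was 10, and without knockout replicate 3 it was 2. Of the 17, 11 ordered the knockout arrays as S100a8 did, against 18.9% of all genes. Cxcr6 had 9.93, 9.38 and 9.61 in wild type and 10.55, 10.91 and 10.99 in the knockout, lowest on wild type replicate 2 and on knockout replicate 1 as Lgals1 and Fgl2 were.

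Markers of CD8 and natural killer (NK) cells moved beside these genes. Of 11 measured, 3 rose and 1 fell by limma (6 and 3 at an unadjusted p under 0.05), with a median difference of 0.67. Their mean was 7.70 to 7.83 in wild type and 7.69, 8.46 and 8.40 on knockout replicates 1, 2 and 3. Knockout replicate 1 was lowest and the others nearly equal, as in Lgals1 and Fgl2. Here, however, the list mean of knockout replicate 1 lay below the wild type means, where in Lgals1 and Fgl2 that array lay above every wild type array. This list mean joins genes that rose with genes that fell. In 5 of the 11 genes every knockout array lay above every wild type array, as in 11.0% of all genes, and in 1 below. The lowest wild type mean was that of replicate 3, not replicate 2 as in those genes. Of the 11, 6 ordered the knockout arrays as S100a8 did, against 18.9% of all genes. The genes that rose were the NK receptor genes Ncr1 (difference 2.50, limma adjusted p = 0.0243) and Klrc1 (1.68, 0.0212) and the adhesion receptor gene Crtam (1.13, 0.00662). Klra8, another NK receptor gene, fell by 2.12 (limma adjusted p = 0.00500) and lay among the dimmest 40% of genes by mean level. The defining CD8 genes Cd8a and Cd8b1 had differences of -0.36 and -0.61 and did not pass (limma adjusted p = 0.566 and 0.276). Leaving out wild type replicate 1, 2 or 3 left 0, 1 and 0 higher calls, leaving out knockout replicate 1 or 3 gave 6 and 1, and the neutrophil covariate gave 0. The part of NK cells in the differences of Lgals1 and Fgl2 was not tested. Of 13 core T cell genes, 13 had a negative difference (median -0.17) and 0 passed by limma, with 2 lower at an unadjusted p under 0.05 and 1 called with trend and robust variance. The lowest p values were those of the costimulatory receptor genes Cd28 (difference -0.39, limma adjusted p = 0.0810) and Cd27 (-0.49, 0.198).

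Of the other Treg suppressive molecules, 16 measured, 0 rose and 2 fell by limma (1 and 4 at an unadjusted p under 0.05). Cd83 had 9.51, 9.64 and 9.48 in wild type, against 8.83, 8.83 and 8.64 in the knockout. Il2ra, the interleukin-2 receptor alpha chain, had 9.06, 8.91 and 9.12 in wild type, against 8.60, 8.21 and 8.33 in the knockout. Their limma adjusted p were 0.0128 and 0.0432. Il2ra did not pass with its probe sets averaged (adjusted p = 0.0918) or without knockout replicate 2 or 3 (0.0821 and 0.124), which left 1 fall in the list in each case. The median difference of this list was -0.090, so the rises of Lgals3 and Fgl2 stood beside falls or undetected differences in these genes. Of 11 Treg identity genes 0 rose and 3 fell by limma (0 and 8 at an unadjusted p under 0.05), Il2ra again, the semaphorin receptor gene Nrp1 (-0.80) and Ikzf2 (-0.77). Ikzf2 lay among the dimmest 40% of genes by mean level, and without those genes 2 of this list fell. Without knockout replicate 1, 2 or 3 the lower calls numbered 6, 1 and 0.

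Among other galectins and related genes, 1 of 5 measured rose and 0 fell by limma (3 and 0 at an unadjusted p under 0.05), Lgals3bp, which encodes a secreted glycoprotein that binds galectin-3. It had 8.59, 8.55 and 8.51 in wild type and 9.07, 9.32 and 9.40 in the knockout, 1.63-fold (difference 0.71, SE 0.10, limma adjusted p = 0.0223). Lgals7, a galectin of stratified epithelia, had 5.15, 5.45 and 5.26 in wild type and 5.81, 5.68 and 5.84 in the knockout without passing (adjusted p = 0.0603). Both sets of knockout values lay above those of wild type. Lgals2 and Lgals12 had differences of -0.13 and 0.076, with overlapping groups.

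Of 18 genes listed as possible binding partners of galectins or Fgl2, 1 rose and 0 fell by limma (6 and 0 at an unadjusted p under 0.05), and the median difference was 0.24. The gene that rose was Cd7, a T cell surface glycoprotein through which galectin-1 acts on T cells. It had 9.08, 8.88 and 9.01 in wild type and 10.34, 11.02 and 9.99 in the knockout, 2.75-fold (difference 1.46, SE 0.23, limma adjusted p = 0.0298). Cd7 was highest on knockout replicate 2, as were S100a8 and 33.2% of all genes. It was lowest on replicate 3, where S100a8 was lowest on replicate 1. Cd47 had a difference of 0.40 (adjusted p = 0.102). Havcr2, which encodes the galectin-9 receptor Tim-3, was at 4.59 ± 0.12 and 4.75 ± 0.70 (SD, n = 3, limma adjusted p = 0.825). Fcgr2b, a receptor of Fgl2, was at 7.67 ± 0.21 and 7.99 ± 0.41 (adjusted p = 0.470). Another Fc receptor gene of this list, Fcgr3, had a larger difference of 1.10 without passing (adjusted p = 0.231).

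Enzymes that branch glycans, extend them with galactose or add sialic acid or fucose to them help set how many galectin ligands a cell displays. The list held enzymes of N-glycans and some of O-glycans. Of 21 measured 1 rose and 0 fell by limma (3 and 2 at an unadjusted p under 0.05), and the median difference was 0.023. St3gal3, a sialyltransferase that caps galactose, had 5.65, 5.70 and 5.60 in wild type and 6.34, 6.51 and 6.67 in the knockout (difference 0.85, SE 0.10, limma adjusted p = 0.0128), but with its probe sets averaged the adjusted p was 0.0721. Mgat4b, a branching enzyme, had a difference of 0.54 (adjusted p = 0.0539). Mgat5, the enzyme best known for making galectin-3 ligands, was at 3.32 ± 0.074 and 3.24 ± 0.065 (SD, n = 3, limma adjusted p = 0.638), a level below the 5.28 that bounds the dimmest 40% of genes. Without wild type replicate 1, 2 or 3, no gene of the lists on galectins, binding partners, glycan enzymes, effector memory, suppressive molecules or Treg identity passed (0 in each), and the 6 genes followed here had 0 calls. With the neutrophil covariate these lists had 0 calls too. Lgals3bp was also lost without knockout replicate 3.

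**Figure D4:**
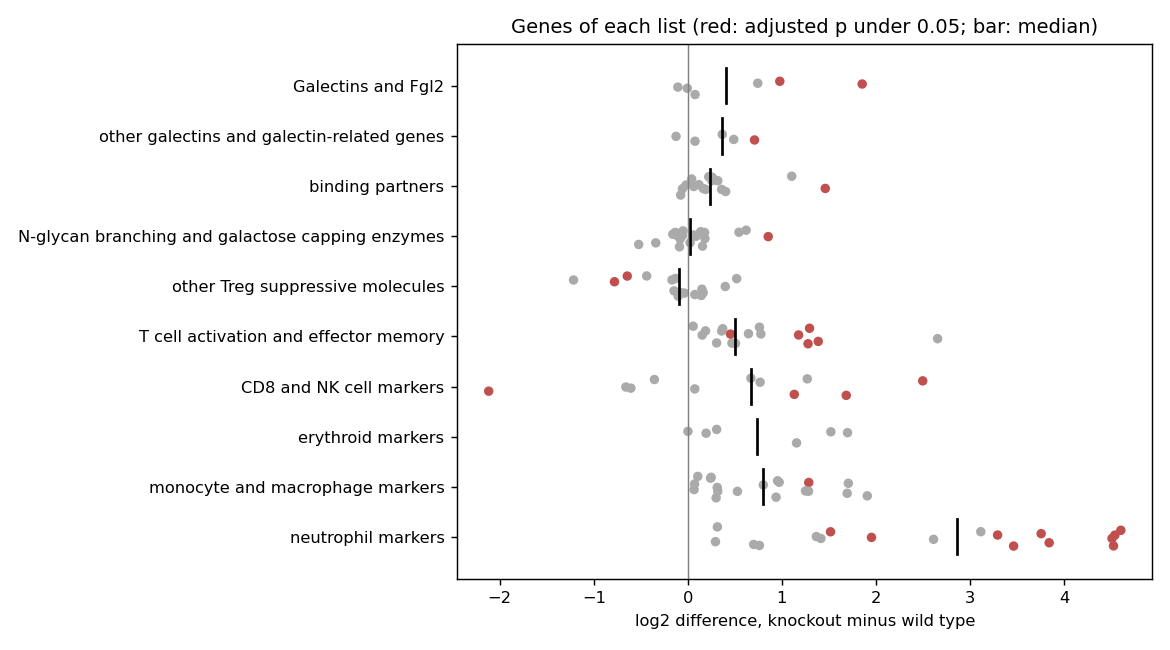
Log2 difference, knockout minus wild type (horizontal axis), of every measured gene in 10 lists, with red points for genes at an adjusted p under 0.05 and a bar at each list's median. The medians run from -0.090 for the other Treg suppressive molecules to 2.86 for the neutrophil markers, with 0.41 for the galectins and Fgl2.

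Lgals3 and Fgl2 both passed under the 3 scalings, without the dimmest genes, with probe sets averaged or tested separately, with trend and robust variance and with array weights. Neither passed with the neutrophil covariate or without wild type replicate 1, 2 or 3. Their differences kept their sign under all 16 alternatives, between 1.60 and 2.01 for Lgals3 and between 0.48 and 1.16 for Fgl2.

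**Figure D5:**
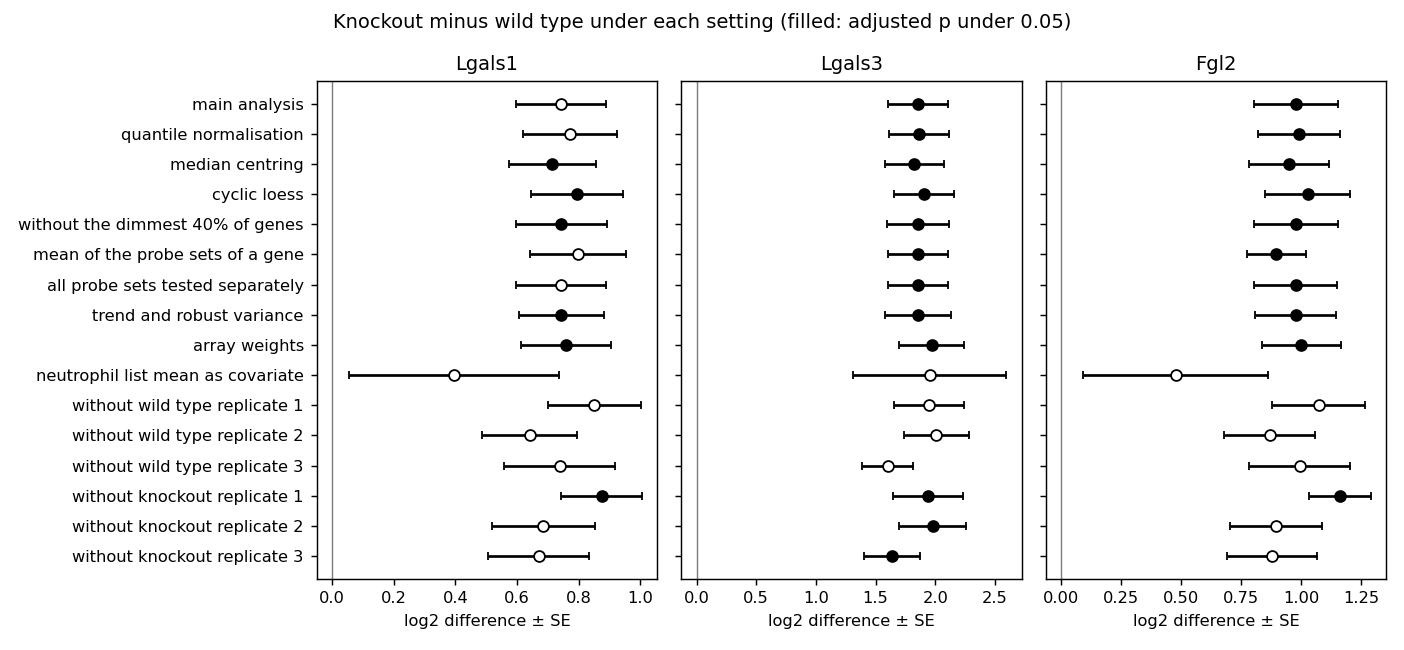
Log2 difference ± SE (horizontal axis) of Lgals1, Lgals3 and Fgl2 under the alternatives (rows) that use no replicate number, filled where the adjusted p was under 0.05. All points lie above 0, and the lowest are those with the neutrophil covariate for Lgals1 (0.39) and Fgl2 (0.48).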

How the data were processed

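Total RNA of 6 samples was hybridised to 1-colour oligonucleotide arrays labelled with biotin, per the labels. The authors deposited log2 expression values, 1 per probe set, and the submitters' processing notes name RMA, its version not given in the sources used here. Such values compress low levels and show no change in total RNA per cell. The deposited log2 values ran from 1.93 to 14.7. Samples were grouped by genotype, with 3 arrays in each group.

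Of 22690 probe sets, 64 were controls, 20380 had 1 symbol in the platform annotation, 691 several and 1555 none. The probe set with the highest mean over the 6 arrays stood for a gene, and the other probe sets of a member were taken from a fit over 22626 probe sets. Differences, knockout minus wild type, were tested in R 4.3.3 with the lmFit and eBayes functions of limma 3.58.1, two-sided, with Benjamini-Hochberg adjustment over all genes and a threshold of 0.05. The fit was tested on simulated data. Folds are ratios of deposited log2 values taken back from the log scale. Sequences come from a RefSeq table of GRCm38.p6. Figures were drawn with matplotlib 3.10.9.

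The members and gene lists were chosen with earlier results of these data known. S100a11 was dropped from the effector memory list after the data were examined; its probe set carries several symbols, so it had no value in the gene table and no count of measured genes changed. Named are all members, up to 4 called genes with the lowest p per list or else the lowest pair, and the 3 genes most like each member. Fcgr2b, Fcgr3, Havcr2, Mgat5, Lgals2 and Lgals12 are named for their roles, and Cd4 and Foxp3 as checks of the label. Prdm1, C1qa, C1qb, C1qc, Msr1, Vcam1, Cd8a and Cd8b1 are named to complete a count or a marker check. All of these were chosen after their values were seen. Alternatives were 3 scalings, a filter on dim genes, the handling of probe sets, the variance model, array weights, a replicate block, a neutrophil covariate and leaving out each array.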

Additional observations from a re-analysis of the deposited data

How the results depend on the processing

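Over all genes, 165 were higher and 71 lower. These counts were 270 and 110 with probe sets tested separately and 9 and 6 with the neutrophil covariate, and the lower count was 113 with trend and robust variance, 110 with array weights and 35 with the replicate block. With 1 array left out they ran from 17 to 358 and from 3 to 186. The members called, 2 of 6, were 0 with the replicate block and 0 with the neutrophil covariate, and 0 to 3 with 1 array left out.

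The labels tie same-numbered arrays only by their number. Deviations of these arrays from their group means correlated at r = -0.082, 0.147 and -0.041, and 3 such values cannot show whether the samples were paired. With the replicate block, which by construction leaves the differences at 1.85 and 0.98 in this balanced design, neither Lgals3 nor Fgl2 passed (limma adjusted p = 0.0562 and 0.0894), and not every array correlated best with its own number. The neutrophil covariate gave 1.95 for Lgals3 and 0.48 for Fgl2, neither passing. Lgals1 passed with median centring (0.71), cyclic loess (0.80), without the dimmest genes (0.74), with trend and robust variance (0.74) and with array weights (0.76). With 1 array left out, the differences ran from 0.64 to 0.87 for Lgals1, 1.60 to 2.01 for Lgals3, 0.87 to 1.16 for Fgl2, -0.044 to 0.17 for Lgals4, -0.14 to -0.059 for Lgals8 and -0.071 to 0.041 for Lgals9. Signs turned for Lgals4 (-0.38) and Lgals9 (0.23) with the neutrophil covariate, and for Lgals9 with quantile normalisation (0.0060) and cyclic loess (0.044). The cause was not tested. The median gene moved from -0.014 to between -0.043 and 0.0094 under the scalings. The 3 arrays of each group and the RMA floor limit what can be detected for the dimmer genes.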

Other observations

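Of 13 measured relatives of Fgl2 that share its fibrinogen-like domain, 0 passed in either direction by limma (1 higher and 0 lower at an unadjusted p under 0.05), and the median difference was -0.0032. The lowest p was that of Fcna, a ficolin of macrophages, with 5.04, 4.90 and 5.01 in wild type and 6.08, 5.13 and 5.98 in the knockout (adjusted p = 0.160), followed by Tnc, a matrix glycoprotein gene (difference 0.12, limma adjusted p = 0.506). The Fcna value on knockout replicate 2 was the lowest of the group, as for Lgals3 and 36.2% of all genes. Its highest value was on replicate 1, where that of Lgals3 was on replicate 3.

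The markers of gut epithelium, which share Lgals4, had 1 of 9 called, Cdh1, which went from 3.00 to 3.51 near the floor of the arrays (adjusted p = 0.0433). Epcam had a difference of -0.30 (limma adjusted p = 0.173). Their mean was 4.42 to 4.46 in wild type and 4.46 to 4.61 in the knockout.

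The profiles closest to those of the galectins without a detected difference were those of Trabd (Pearson r = 0.989 over 6 arrays), Prkcb (0.986) and Wnk1 (0.984) for Lgals8, Exosc4 (0.980), Elp5 (0.977) and Atp5c1 (0.972) for Lgals9, and Mindy1 (0.985), Asah1 (0.985) and Lrrc8a (0.975) for Lgals4. These carry no test.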
